A study of Mus musculus with 10 samples.

Results

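Serum response factor and the cofactors it recruits were followed through 7 genes: Srf, the myocardin family genes Mrtfa, Mrtfb and Myocd, and the ternary complex factor genes Elk1, Elk3 and Elk4. Members were all probe sets of the array that carried one of these symbols alone, which gave 19 probe sets of the 34945 with a single symbol (7 of 18193 genes). They were read on 10 arrays of mouse fibroblasts. The 6 arrays of embryonic fibroblasts (MEFs), taken from embryos of 9.5 days and self-immortalized, were wild type (WT) or Med23KO (KO) and had no serum, 30 min of serum or 90 min of serum. The 4 arrays of 10T1/2 cells, a fibroblast-like line derived from mouse embryo, were an untreated control, MAL overexpression, Med23 knockdown and the 2 treatments combined. MAL is another name of the product of Mrtfa, and Med23 is a gene of Mediator, the coactivator through which DNA-bound factors reach the polymerase. Each condition had 1 array, and the labels name no separate lines, embryos or days, so every p-value here measures only the residual spread of these arrays around an additive model. The study's design text asks about gene expression that depends on SRF.

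SRF is a MADS box transcription factor that binds the CArG box as a dimer. On its own it activates weakly, and 2 families of cofactor compete for its surface. The ternary complex factors are ETS domain proteins that contact DNA beside the CArG box and are switched on by MAP kinase phosphorylation after serum, which drives immediate-early genes such as Fos and Egr1. The myocardin family proteins MRTF-A and MRTF-B are held in the cytoplasm by monomeric actin, enter the nucleus when actin polymerises, and drive cytoskeletal and smooth muscle genes, while myocardin itself is nuclear and found mainly in heart and smooth muscle. Med23 is known as the Mediator subunit that the ternary complex factor ELK1 binds.

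The Srf gene is itself an SRF target, and its promoter holds both kinds of site, so its sequence is shown. The 250 bases before the RefSeq start site lie on the minus strand at chr17:46556163-46556412 (build GRCm38.p6, sequence from RefSeq). The capitals mark, in order, the ETS core CCGGAA and 2 CArG boxes.

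Srf promoter, 5′ to 3′: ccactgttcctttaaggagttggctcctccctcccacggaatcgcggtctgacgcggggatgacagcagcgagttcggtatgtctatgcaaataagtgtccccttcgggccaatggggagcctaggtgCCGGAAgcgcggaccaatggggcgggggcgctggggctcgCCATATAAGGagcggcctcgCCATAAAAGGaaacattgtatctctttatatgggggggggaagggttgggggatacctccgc

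The boxes CCATATAAGG and CCATAAAAGG ended 73 and 53 bases before the start, and CCGGAA ended 117 bases before it. Both strands were searched in windows from 250 bases before to 50 bases after each start, and the CCGGAA match does not overlap a CArG box. Of 27025 genes with a window, 488 (1.81%) had a CArG box in any of their windows, and 5 (0.0185%) had 2 or more in 1 window. CCGGAA stood in the windows of 4503 genes (16.7%). Windows were found for 6 of the 7 genes, all but Myocd. Among these 6, the CArG box was matched in Srf alone, and CCGGAA in Srf, Mrtfb and Elk4.

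Med23, read first as a check of the labels, had log2 values of 7.14, 7.39 and 6.90 along the serum times (none, 30 and 90 min) in WT MEFs, against 3.30, 3.30 and 2.91 in KO MEFs. It read 5.45 in the 10T1/2 control, 5.67 with MAL, 4.24 with knockdown and 3.94 with both. The coefficient was -3.97 (SE 0.13, adjusted p = 1.85e-05, limma) for the knockout and -1.47 (SE 0.22, adjusted p = 0.124, limma) for the knockdown, with every KO or knockdown array below every other array of its cell type. Of 9 fibroblast markers, 8 were above the array median on all 6 MEF arrays, the exception being Thy1, which was below it on each, and all 9 were above it on the 4 10T1/2 arrays. Their levels differed between the genotypes, with means of 9.48 in WT and 13.37 in KO for Col1a2, 13.86 and 11.92 for S100a4 and 10.84 and 9.45 for Pdgfrb, and the part of this in the KO results was not tested. None of the 3 endothelial markers Pecam1, Cdh5 and Tek was above the median on any array, while of the 4 smooth muscle markers Des and Smtn were above it on all 10 arrays, Cnn1 on 2 MEF and 4 10T1/2 arrays, and Myh11 on no MEF and 2 10T1/2 arrays. The macrophage marker Csf1r, the epithelial marker Epcam and the neural markers Sox10 and Map2 were also above it on all 10 arrays. Tnnt2, of skeletal and heart muscle, was above it on the 6 MEF arrays, and the neural marker Tubb3 on 3 10T1/2 arrays. The other markers of these types, Ptprc, Adgre1, Cdh1, Krt8, Myod1, Myog and Myh6, were above it on no array. Array medians lay between 3.86 and 3.93 in the MEFs and between 3.64 and 3.70 in the 10T1/2 cells. All values are log2 expression values of a probe set on an array, so a difference of 1 is a 2-fold change, and levels of different probe sets are not compared with each other.

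Of the 19 probe sets, 14 rose above the array median on at least 1 array of each cell type and were tested. The other 5 stayed below it on all 10 arrays, namely both Myocd probe sets, 1446390_at of Elk1, 1445886_at of Elk3 and 1450549_s_at of Elk4. Myocd probe set 1425808_a_at read 3.39 to 3.81 in the MEFs and 2.90 to 3.50 in the 10T1/2 cells, and 1425978_at read 2.88 to 3.15 and 2.84 to 3.13. Each of the other 6 genes had at least 1 probe set above the median on all 10 arrays.

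**Figure D1:**
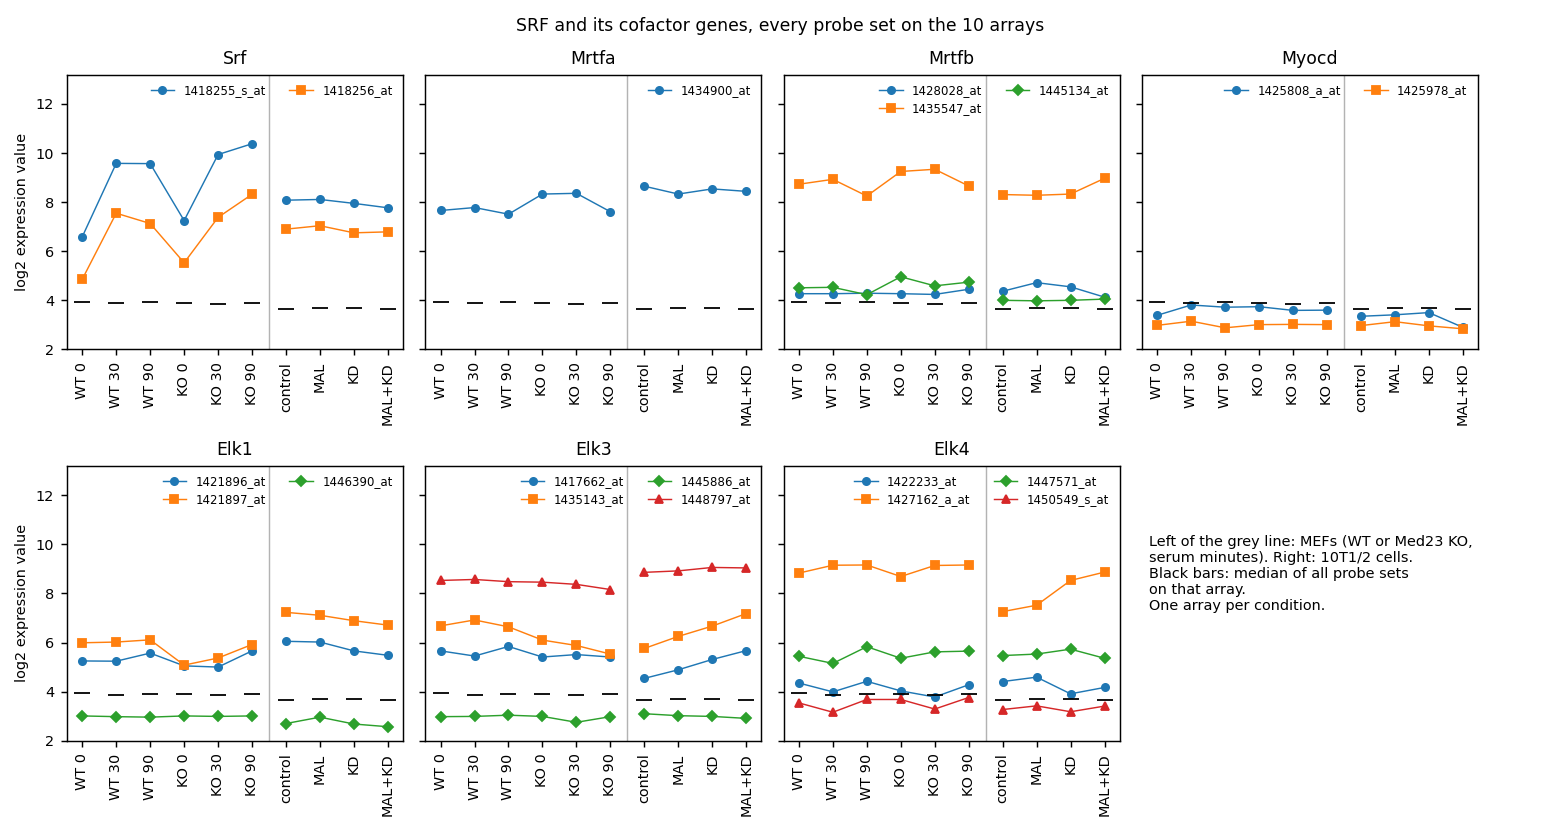
Log2 expression values (vertical axis) of every probe set of the 7 genes on the 10 arrays, MEFs left of the grey line and 10T1/2 cells right of it, 1 array per point. Black bars are the median of all probe sets on each array. The 2 Srf lines climb with serum in both genotypes, from 6.59 to 9.58 for 1418255_s_at in WT MEFs, while both Myocd lines stay under the black bars.

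Srf rose strongly with serum, and it alone of the 6 genes tested passed at 30 or 90 min. In WT MEFs its probe set 1418255_s_at read 6.59 without serum, 9.58 at 30 min and 9.57 at 90 min. In KO MEFs it read 7.25, 9.94 and 10.38. The 4 arrays with serum were all above the 2 without it, and the share of all probe sets separated like this was not counted. The second Srf probe set, 1418256_at, which is drawn from the same transcript record, read 4.86, 7.55 and 7.13 in WT MEFs and 5.53, 7.38 and 8.32 in KO MEFs, again with no overlap. In 10T1/2 cells, whose labels state no serum step, 1418255_s_at read 8.08 in the control, 8.11 with MAL, 7.95 with knockdown and 7.77 with both. These 4 values lay between the unstimulated and the stimulated MEFs, although cell type and any separate normalization of the 2 sets of arrays cannot be told apart. Over the 10 arrays, with the mean of each cell type subtracted, the 2 Srf probe sets had a Pearson r of 0.98. Tested probe sets of the other genes agreed less, with r of 0.89 at most (Elk3 1435143_at and 1448797_at). The lowest were -0.55 for Mrtfb 1428028_at and 1435547_at and -0.51 for Elk4 1422233_at and 1427162_a_at.

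At 30 min, 1418255_s_at was higher by 2.84 log2 units (SE 0.18, 7.16-fold, adjusted p = 0.00682, limma), by 2.99 in WT and 2.69 in KO. Probe set 1418256_at was higher by 2.27 (SE 0.32, adjusted p = 0.0737, limma), by 2.69 in WT and 1.85 in KO, and so did not pass. Against this, 0.22% of all probe sets tested were called higher and 0.232% in either direction. Both Srf probe sets, 2 of the 14, were higher by at least 1 log2 unit in both genotypes, as were 1.07% of all probe sets. At 90 min the coefficients were 3.05 (SE 0.18, 8.31-fold, adjusted p = 0.00412, limma) and 2.53 (SE 0.32, 5.78-fold, adjusted p = 0.0126, limma), so that 2 of 14 probe sets were called where 4.09% of all were called higher and 8.65% in either direction. The 30 min and 90 min comparisons share the arrays without serum. Without the 90 min arrays the adjusted p of 1418255_s_at at 30 min was 0.0725, and without the 30 min arrays those at 90 min were 0.0607 and 0.0642, with no probe set of the array called. A bulk array cannot tell more Srf RNA per cell from more cells that express it.

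Between 30 and 90 min the 2 genotypes ran differently by value. Srf 1418255_s_at changed by -0.01 in WT and 0.44 in KO, and 1418256_at by -0.42 and 0.94. The pairs disagreed in sign for both probe sets, the additive coefficients were 0.21 (SE 0.18) and 0.26 (SE 0.32), and with 1 array per condition the difference between genotypes was not tested.

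**Figure D2:**
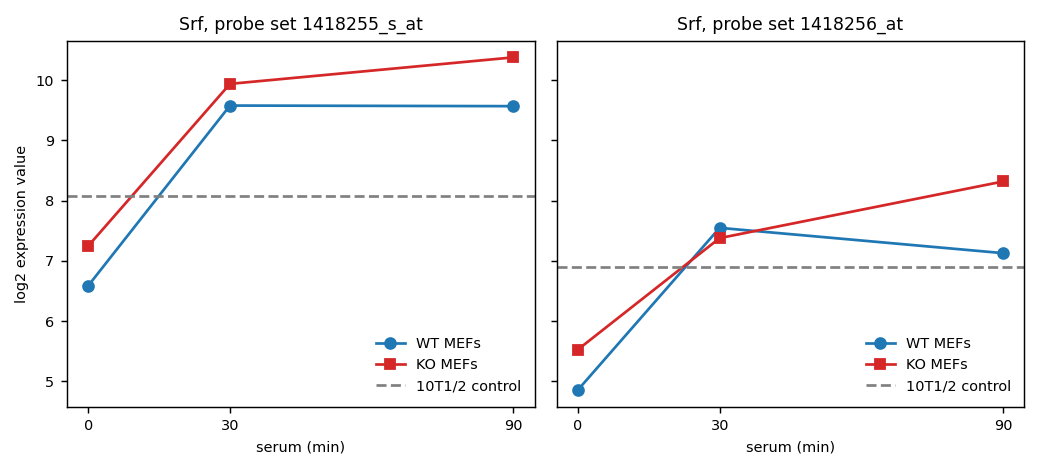
Log2 expression value (vertical axis) of the 2 Srf probe sets against minutes of serum in WT (circles) and KO (squares) MEFs, 1 array per point, with the 10T1/2 control as a dashed line. Both genotypes rise by 30 min, and at 90 min the KO array stands above the WT array, at 10.38 against 9.57 for 1418255_s_at and 8.32 against 7.13 for 1418256_at.

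No probe set of the ternary complex factor genes passed with serum. Elk1, the best known of the serum-responsive ETS factors, read 5.99, 6.02 and 6.11 in WT MEFs and 5.08, 5.37 and 5.92 in KO MEFs on 1421897_at. The KO values approached the WT values as serum went on, with the 90 min KO array still below all 3 WT arrays. Elk3 encodes a factor, also called Net, that represses as well as activates. Its probe set 1435143_at read 6.68, 6.92 and 6.64 in WT and 6.10, 5.88 and 5.53 in KO, with every KO array below every WT array. How many of all probe sets separate the genotypes so was not counted. Elk4 encodes the factor SAP-1. On 1427162_a_at it read 8.83, 9.15 and 9.16 in WT and 8.69, 9.14 and 9.16 in KO, nearly the same in the 2 genotypes, with the 2 arrays without serum the lowest. The Elk4 differences from 0 min on that probe set were 0.38 (SE 0.16) at 30 min and 0.40 (SE 0.16) at 90 min, and neither passed (adjusted p = 0.531 and 0.17, limma). Elk1 at 90 min differed by 0.48 on 1421897_at and 0.46 on 1421896_at without passing (adjusted p = 0.212 and 0.148, limma).

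Mrtfb 1435547_at and the Mrtfa probe set both read lowest at 90 min in each genotype. Mrtfb 1435547_at read 8.73, 8.93 and 8.25 in WT and 9.25, 9.34 and 8.66 in KO. The 90 min value was the lowest of each genotype, and it was 0.68 below the 30 min value in both. That coefficient of -0.68 (SE 0.16) did not pass (adjusted p = 0.0668, limma), but passed with 1 probe set per gene (0.0423) and with an intensity trend in the variance (0.0395). Mrtfa 1434900_at read 7.66, 7.78 and 7.51 in WT and 8.33, 8.36 and 7.61 in KO, where the 90 min KO array fell among the WT arrays. Its 90 min against 30 min coefficient was -0.51 (SE 0.20, adjusted p = 0.184, limma). None of the 14 probe sets passed in this comparison, in which 4.4% of all probe sets were called, and 4 of the 14 had an unadjusted p under 0.05 in limma, as had 24.8% of all. The 2 other Mrtfb probe sets, 1428028_at and 1445134_at, did not share this pattern and stayed within 4.23 to 4.96 over the 6 MEF arrays.

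Loss of Med23 in the MEFs went with higher Srf and Mrtfb and lower Elk1 and Elk3 on 1 probe set of each gene. As the labels name no separate lines, genotype and any other difference between the WT and KO cultures cannot be told apart. Srf 1418255_s_at was higher in KO by 0.61 (SE 0.15, 1.53-fold, adjusted p = 0.0224, limma), with differences of 0.66, 0.36 and 0.81 at 0, 30 and 90 min. Mrtfb 1435547_at was higher by 0.45 (SE 0.13, adjusted p = 0.0388, limma), with 0.52, 0.41 and 0.41. Elk1 1421897_at was lower, with a coefficient of -0.58 (SE 0.17, adjusted p = 0.0442, limma) and differences of -0.91, -0.65 and -0.19. Elk3 1435143_at had the largest of these differences, -0.91 (SE 0.16, 1.88-fold lower, adjusted p = 0.00707, limma), with -0.58, -1.04 and -1.11. Thus 4 of 14 probe sets were called, 2 higher and 2 lower, where 35.1% of all probe sets were called, 17.9% higher and 17.2% lower. The members' share was not above that of the whole array.

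The other probe sets of these genes did not pass. Srf 1418256_at differed by 0.56 (adjusted p = 0.144, limma), with 0.67, -0.17 and 1.19 at the 3 times. Mrtfb 1428028_at differed by 0.04 and 1445134_at by 0.34 (adjusted p = 0.826 and 0.13, limma). Elk1 1421896_at differed by -0.12, and Elk3 1448797_at and 1417662_at by -0.20 and -0.21. Mrtfa differed by 0.45 (SE 0.16, 95% interval 0.06 to 0.84, adjusted p = 0.0763, limma), and it passed only when the 90 min arrays were left out (0.62, adjusted p = 0.0305). Elk4 1427162_a_at differed by -0.05, with a 95% interval of -0.36 to 0.26. Each of the 4 calls was lost when at least 1 of the serum times was left out. Without the 0, 30 or 90 min arrays the adjusted p of Srf became 0.128, 0.0671 or 0.0645 and that of Mrtfb 0.213, 0.161 or 0.056, while Elk1 went to 0.247 and 0.208 without 0 and 30 min and Elk3 to 0.0739 without 30 min.

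In 10T1/2 cells the knockdown of Med23 went with higher Elk3 by value, and with higher Elk4 on 1427162_a_at alone. Elk4 1427162_a_at read 7.26 in the control, 7.52 with MAL, 8.53 with knockdown and 8.87 with both. Both arrays with knockdown were above both without it, by 1.27 and 1.35 within the pairs. Elk4 1422233_at went the other way, with pair differences of -0.50 and -0.42, and 1447571_at was mixed (0.26 and -0.17). Elk3 1435143_at read 5.76, 6.25, 6.67 and 7.18, and 1417662_at read 4.54, 4.89, 5.31 and 5.67, in the same order of arrays. Again the knockdown arrays did not overlap the others, with pair differences of 0.91 and 0.93 and of 0.77 and 0.78. The share of all probe sets separated in this way was not counted. Elk3 1448797_at, drawn from the same transcript record as 1417662_at, read 8.86, 8.92, 9.06 and 9.04, in pairs 0.20 and 0.12 higher.

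The 10T1/2 model left 1 residual degree of freedom and called 0 of 25072 probe sets for the knockdown (0%), although 6915 (27.6%) had an unadjusted p under 0.05 in limma. The Elk4 coefficient of 1.31 (SE 0.17, 2.48-fold, adjusted p = 0.124, limma) therefore did not pass. It passed after quantile normalization of the 4 arrays (1.23, adjusted p = 0.0218) and in 1 limma fit over all 10 arrays (adjusted p = 0.00629). Elk3 1435143_at (0.92) and 1417662_at (0.77) also passed in that fit, at 0.0185 and 0.0267. Over all probe sets, 2359 were called for the knockdown after quantile normalization. The fit over all 10 arrays called 4209 of the 22331 it tested. With a 10T1/2 array left out of it, Elk4 passed without the control or the knockdown array (0.0173) but not without the MAL or the combined array (0.0723), and neither Elk3 probe set passed (0.0703 to 0.171). Elk4 was the only one of 14 probe sets higher by at least 1 in both pairs, where 2.93% of all were. Elk1 was lower by value, with coefficients of -0.37 on 1421897_at and -0.47 on 1421896_at, and Srf differed by -0.24 and -0.20. Mrtfb 1435547_at read 8.31, 8.28, 8.33 and 8.97, high on the array with both treatments alone. Mrtfb 1428028_at read 4.37, 4.72, 4.55 and 4.13, lowest on that array.

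The 2 ways of losing Med23 were set against each other in the fit over all 10 arrays, a test added after the data were seen. Elk3 1435143_at differed most, being 1.83 log2 units lower in KO MEFs than in knockdown 10T1/2 cells relative to their own controls (KO minus knockdown -1.83, SE 0.24, adjusted p = 0.00206, limma). Elk4 1427162_a_at had a difference of -1.36 (SE 0.21, adjusted p = 0.00369, limma) and Elk3 1417662_at of -0.98 (adjusted p = 0.019, limma). Srf 1418255_s_at had the opposite sign, 0.84 (SE 0.24, adjusted p = 0.0332, limma). These were 4 of 14 probe sets, where 26.9% of all were called. On their other tested probe sets, Elk4 differed by 0.24 (1422233_at) and 0.02 (1447571_at) and Srf by 0.76 (1418256_at). None of these passed (adjusted p = 0.442, 0.957 and 0.173, limma). Opposite signs in every pair of the 2 cell types, seen in Srf 1418255_s_at and in Elk3 1435143_at and 1448797_at, were also seen in 20.9% of all probe sets. The Elk3 1435143_at and Elk4 calls held without each serum time and without each 10T1/2 array. The Srf call was lost in each of these cases (adjusted p = 0.0504 to 0.137), and that of Elk3 1417662_at without the 0 min arrays (0.0636) and without each 10T1/2 array (0.0601 or 0.0767). Cell type, serum and the means of losing Med23 all differ between the 2 comparisons and cannot be told apart.

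**Figure D3:**
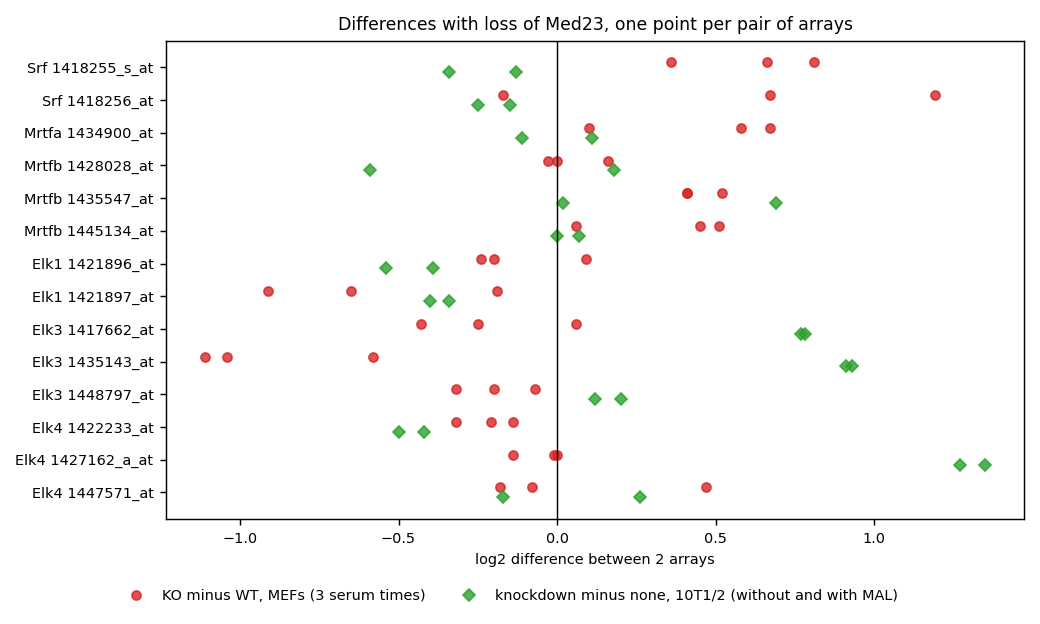
Log2 difference between 2 arrays (horizontal axis) with loss of Med23 for the 14 tested probe sets, KO minus WT at each of the 3 serum times (circles) and knockdown minus no knockdown without and with MAL (diamonds). For Elk3 1435143_at the circles lie from -1.11 to -0.58 and the diamonds at 0.91 and 0.93, and for Elk4 1427162_a_at the diamonds at 1.27 and 1.35 stand apart from circles near 0.

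No member passed with MAL overexpression, in a fit that called no probe set of the array. The only Mrtfa probe set read 8.65 in the control and 8.33 with MAL, and 8.54 with knockdown and 8.44 with both, so no rise in Mrtfa signal marked the arrays labelled MAL overexpression. No source used here states whether this probe set reads the introduced MAL sequence, and the label is therefore unchecked by it. Srf 1418255_s_at differed by 0.03 without and -0.18 with knockdown, and 1418256_at by a coefficient of 0.09. By value Elk3 1435143_at was higher with MAL in both pairs, by 0.49 and 0.51 (coefficient 0.50, SE 0.17, adjusted p = 0.204, limma). Elk3 1417662_at was higher by 0.35 and 0.36. Elk3 1448797_at did not share this and differed by 0.06 without and -0.02 with knockdown. Mrtfb 1435547_at was higher by 0.64 with knockdown and differed by -0.03 without it, while 1428028_at differed by -0.42 and 0.35. No probe set of the array passed (0%), with 5867 of 25072 (23.4%) at an unadjusted p under 0.05 in limma and 3168 called in the fit over all 10 arrays. None of the 14 members was among those past 1 log2 unit in both pairs, which 3.11% of all probe sets were.

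The target genes of the 2 cofactor families were counted from lists, each gene by its probe set of highest mean. Of 12 ternary complex factor targets, 7 rose at 30 min of serum, where 0.184% of all genes did, and the list median was 5.08 against 0.01 over all genes. Fos, which encodes an AP-1 subunit, rose from 5.99 to 12.24 in WT and from 6.63 to 13.03 in KO (coefficient 6.32, SE 0.31, adjusted p = 0.00598, limma), and read 7.16 and 9.02 at 90 min, still above the arrays without serum. Nr4a1, an orphan nuclear receptor gene, rose by 6.99 and stayed higher by 5.47 at 90 min. Fosb, a second AP-1 gene, rose by 6.5. At 90 min 7 of the 12 were higher than without serum (3.58% of all genes), with a median of 2.47. From 30 to 90 min 4 of 12 fell (4.6% of all genes), with a median of -1.89. Without the 90 min arrays the count at 30 min went from 7 to 3, with Nr4a1 among the calls lost (adjusted p = 0.0907, limma). Without the 30 min arrays the count at 90 min went to 0. Over all probe sets the calls in these fits went from 60 to 7 and from 2242 to 0.

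Of 25 myocardin family targets tested, 1 rose at 30 min of serum (0.184% of all genes), Ccn1, a matricellular protein gene (3.34, SE 0.31, adjusted p = 0.0281, limma), and 8 rose at 90 min (3.58% of all genes), with a median of 0.80 against -0.11 over all genes. Vcl, which encodes the focal adhesion protein vinculin, read 10.05, 10.00 and 12.14 in WT and 11, 11.37 and 12.90 in KO, high on the 2 arrays at 90 min. Itga5, an integrin gene, was higher by 2.43 at 90 min (adjusted p = 0.0101, limma). Between 30 and 90 min these same 2 genes passed (0.964% of all genes did so), Vcl at 1.84 (SE 0.20, adjusted p = 0.0189, limma) and Itga5 at 1.34 (SE 0.25, adjusted p = 0.0462, limma), which went to 0.0543 and 0.0817 without the 0 min arrays. The other calls did not hold in limma fits on 2 of the 3 times, at adjusted p = 0.164 for Ccn1 at 30 min without the 90 min arrays, and 0.0642 for Vcl and 0.0675 for Itga5 at 90 min without the 30 min arrays.

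A few of the target promoters carry a CArG box in the window searched and are shown as 30 bases with the box in capitals, from RefSeq GRCm38.p6 on the plus strand. Egr2 encodes an immediate-early zinc finger factor (here at chr10:67537787-67537816), Vcl vinculin (chr14:20929161-20929190) and Myl9 a myosin light chain (chr2:156775293-156775322).
Egr2: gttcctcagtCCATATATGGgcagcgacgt
Vcl: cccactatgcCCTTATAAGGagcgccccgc
Myl9: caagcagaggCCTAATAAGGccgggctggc
The box stood in the windows of 1 of 8 ternary complex factor targets, Egr2, and 4 of 22 myocardin family targets. Only targets that had a window were counted, and 1.81% of all genes with a window had a box. The other 3 of the 4 besides Vcl were Myl9, Cnn2 and Fhl1. Boxes outside the windows were not searched for, so the counts do not show which targets lack one.

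With loss of Med23 in the MEFs the medians of the 2 target lists had opposite signs. Of 25 myocardin family targets, 13 rose and 1 fell, where 19.7% and 19.1% of all genes did, and the list median was 0.88 against -0.02. Tagln, the smooth muscle transgelin gene, read 4.82, 6.19 and 5.86 in WT and 11.03, 11.62 and 11.81 in KO (coefficient 5.86, SE 0.18, adjusted p = 1.5e-05, limma). Myl9 read 5.83, 6.93 and 6.73 in WT and 11.10, 11.38 and 11.52 in KO. Actg2, a smooth muscle actin gene, rose by 3.09, and Ankrd1, an ankyrin repeat protein gene of muscle, fell by 3.70. Of 12 ternary complex factor targets, 1 rose and 5 fell, with a median of -0.82. Egr1 read 9.81, 13.45 and 11.83 in WT and 6.43, 12.55 and 8.35 in KO (coefficient -2.59, SE 0.50, adjusted p = 0.0102, limma), and Fos was the 1 that rose (1.10, adjusted p = 0.0192, limma).

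The number of myocardin family targets called higher was 13, 10 and 13 without the 0, 30 and 90 min arrays. The 5 lower ternary complex factor targets went to 0, 1 and 3. Over all probe sets the KO calls went from 9093 to 4598, 3752 and 8406 in the same fits. Egr1 lost its call without the 0 min arrays (adjusted p = 0.0572, limma) and without those of 90 min (0.0817), and Fos without those of 30 min (0.083). Mean levels of the 4 smooth muscle markers were 3.93 to 4.14 on the WT arrays and 4.16 to 5.34 on the KO arrays, with means of 3.46 and 5.31 for Cnn1, itself on the target list, 5.04 and 6.30 for Smtn, 4.41 and 4.09 for Des and 3.16 and 3.16 for Myh11. Their part in this result was not tested.

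Myocardin family targets stood higher by value with MAL overexpression. By at least 1 log2 unit in both pairs, 9 of 26 were higher, where 1.85% of all genes were, with a median of 0.71 against -0.03. Actg2 read 6.94 in the control and 11.48 with MAL, and 7.95 and 12.30 with knockdown. Cnn1, the smooth muscle calponin gene, read 3.83 and 7.96, and 4.89 and 9.61. Both arrays with MAL stood far above both without it for each gene, with coefficients of 4.45 and 4.43 that did not pass (adjusted p = 0.137 for each, limma). In the fit over all 10 arrays 13 of these targets were called higher, 10 without the control or the MAL array and 4 without the knockdown or the combined array. Of 11 ternary complex factor targets tested, 1 was lower by at least 1 in both pairs with MAL, the gene Fos (1.94% of all genes), with a median of -0.54. With knockdown, 3 of 11 were lower by that much (0.715% of all genes) and 4 of 26 myocardin family targets higher (3.17%), with medians of -0.93 and 0.78. Examples were Egr2, which read 5.75 in the control and 4.45 with knockdown, and Ccn2, a matricellular protein gene, at 7.26 and 8.52. None of these passed in the 10T1/2 fit. Of the 22331 probe sets it tested, the fit over all 10 arrays called 3168 for MAL and 4209 for the knockdown, higher or lower. The shares of all genes in each direction were not counted for that fit. For the knockdown it called 4 of the ternary complex factor targets lower and 8 of the myocardin family targets higher. With the control or the knockdown array left out of it the counts were 2 and 2, and with the MAL or the combined array left out 0 and 1.

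**Figure D4:**
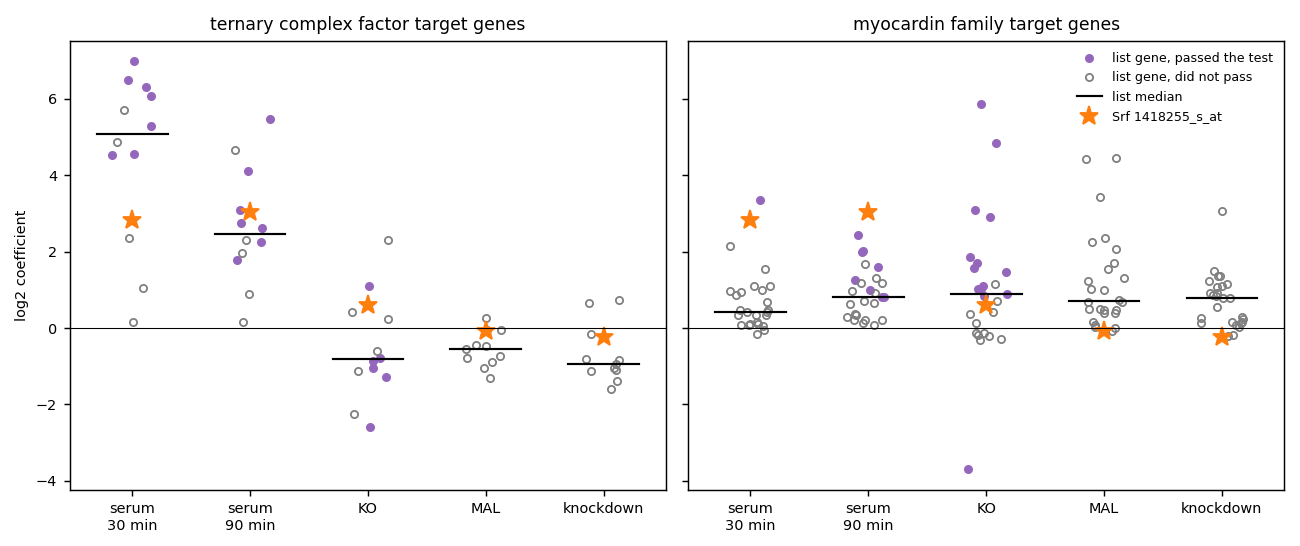
Log2 coefficients (vertical axis) of the listed target genes in 5 comparisons, 1 point per gene, filled where it passed the test, with the list median as a bar and Srf 1418255_s_at as a star. The left medians are 5.08 and 2.47 for serum at 30 and 90 min and -0.82 for KO, the right ones 0.42, 0.80 and 0.88, and the star lies at 2.84, 3.05 and 0.61.

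Of 11 tested MAP kinase cascade genes, upstream of the ternary complex factors, none passed in any of the 3 serum comparisons (at 30 and 90 min against no serum, 0.184% and 3.58% of all genes rose, and from 30 to 90 min 0.964% did). In KO MEFs 1 rose and 1 fell, where 19.7% and 19.1% of all genes did, so the list's share was not above the background. Braf, which encodes a RAF kinase, rose (1.5, SE 0.18, adjusted p = 0.00184, limma) and the adaptor gene Shc1 fell (-0.47, adjusted p = 0.0356, limma). The KO call of Shc1 was lost without the arrays of 0 or 30 min (adjusted p = 0.197 and 0.179, limma), and that of Braf held without each serum time.

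Among nuclear partners and inhibitors of SRF, 2 of 13 tested rose in KO MEFs and 3 fell, Med23 being 1 of these 3, shares near the 19.7% and 19.1% of all genes. Msx2, a homeobox repressor gene, read 4.12, 3.84 and 4.21 in WT and 6.76, 7.91 and 8.34 in KO (coefficient 3.61, SE 0.30, adjusted p = 0.000496, limma). Csrp2, a LIM protein gene of smooth muscle, read 8.97, 8.75 and 8.44 in WT and 11.20, 11.08 and 11.32 in KO. Klf4, a zinc finger repressor of smooth muscle genes, read 7.45, 8.59 and 10.19 in WT and 5.28, 7.19 and 9.37 in KO. It was lower in KO at a coefficient of -1.46 (adjusted p = 0.00731, or 0.0671 without the 30 min arrays, limma) and higher at 90 min of serum by 3.41 (adjusted p = 0.00803, or 0.0657 without the 30 min arrays). For both Msx2 and Csrp2 every KO array lay above every WT array, a separation that was not counted over all genes.

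Relatives of the members by DNA-binding domain were read alongside. None of the 4 MADS box genes Mef2a, Mef2b, Mef2c and Mef2d passed in any comparison as reported, and the 10T1/2 fit called no probe set at all. The largest serum coefficient was 0.67 for Mef2a at 90 min (adjusted p = 0.0536, limma). It passed with no filter (0.0454), with 1 probe set per gene (0.0361) and with an intensity trend (0.0228). With knockdown Mef2a and Mef2c were higher by value (0.91 and 0.86), and Mef2b and Mef2d were lower in both pairs. In the fit over all 10 arrays Mef2a passed with knockdown (adjusted p = 0.0489, limma). Of 11 tested ETS genes outside the ternary complex group, 3 fell in KO MEFs and none rose, where 19.1% of all genes fell and 19.7% rose. Ets2 read 9.29, 9.79 and 10.72 in WT and 6.63, 6.41 and 7.59 in KO (coefficient -3.06, SE 0.17, adjusted p = 0.000109, limma), Etv4 fell by 1.96 and Etv5 by 0.69. The first 2 calls held without each serum time, and that of Etv5 was lost without those of 0 or 30 min (adjusted p = 0.154 and 0.192, limma).

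The genes whose pattern was most like each member's were found by Pearson r over the 10 arrays after the mean of each cell type was subtracted, among 7061 genes, as a description of arrays that share their processing. For Srf 1418255_s_at these were F3, the tissue factor gene (r = 0.975), Dusp5, a phosphatase gene for ERK (0.948), and Zbtb21 (0.932). F3 read 8.05, 10.95 and 11.07 in WT and 7.99, 11.08 and 12.34 in KO, and 9.17, 9.76, 9.06 and 9.0 in the 10T1/2 arrays. Like Srf it was higher on the 4 MEF arrays with serum, with its highest value on the KO array at 90 min. For Mrtfb the nearest were Smarcad1 (0.976), Birc2 (0.976) and Manea (0.971), and Birc2 read 7.32, 7.44 and 6.4 in WT and 7.67, 7.97 and 7.14 in KO with the same low values at 90 min. For Mrtfa they were Zfp606 (0.974), Myorg (0.953) and Zfp229 (0.945). For Elk1 they were Dusp14 (0.979), Eif6 (0.977) and Metrnl (0.974), of which Dusp14 read 4.29, 4.89 and 7.41 in KO against 7.22, 7.53 and 7.48 in WT. For Elk3 1448797_at they were Manba (0.964), Nrep (0.961) and Casp6 (0.95), and for Elk4 Supt6 (0.974), Ankrd11 (0.96) and Dnmt3a (0.959). The last 3 shared with Elk4 the higher values on both knockdown arrays of 10T1/2 cells, as in Dnmt3a at 6.77 and 6.63 without and 8.09 and 8.17 with it.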

How the data were processed

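The 10 arrays carry biotin-labelled RNA, per the labels' protocols. The authors deposited 1 log2 value per probe set and array, and the scale was read from the values (1.85 to 14.7). RMA and MAS5 are named per the submitters' processing notes, without versions or roles. No source used here states which of them made the values, or whether MEF and 10T1/2 arrays were normalized jointly. Of 45101 probe sets, 64 were controls, 34945 had 1 symbol, 932 several and 9160 none in the platform annotation. Symbols were updated by Entrez identifier to RefSeq GRCm38.p6 (34741 matched).

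All probe sets whose highest value on the arrays of a fit exceeded the median there (3.90 in MEFs, 3.67 in 10T1/2 cells) were fitted with limma 3.58.1 (lmFit, eBayes) in R 4.3.3. The MEF model held genotype and serum time (25915 probe sets, 2 residual and 4.15 prior degrees of freedom), and the 10T1/2 model held MAL and knockdown (25072 probe sets, 1 and 3.02). Two-sided p-values were adjusted after Benjamini and Hochberg over the probe sets tested, at a threshold of 0.05. List genes used the probe set of highest mean. An array has no read depth, and precision is limited by the number of arrays. The fits were tested on simulated data. Of each list at most 3 called genes per direction were to be named, by coefficient with 1 sign in every pair, or the 1 or 2 largest where none was called. The genes given with levels were picked from these once their values were known. One further gene list is not reported here. The members and lists were chosen with earlier results of these data known. The alternatives were quantile normalization, no filter, 1 probe set per gene, an intensity trend, 1 fit over all 10 arrays, no serum term and arrays left out in turn.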

Additional observations from a re-analysis of the deposited data

Results flagged for a closer look

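On 3 probe sets the effect of losing Med23 had opposite signs in the 2 cell types, in every pair of arrays. Elk3 1435143_at had a difference of -1.83 between the effect of the knockout in MEFs and that of the knockdown in 10T1/2 cells, called by the test of the difference, and was lower in 3 of 3 MEF pairs and higher in 2 of 2 pairs of 10T1/2 arrays. Srf 1418255_s_at had a difference of 0.84, also called by that test, with the opposite signs in all 5 pairs. That call was lost with any of the serum times left out. Elk3 1448797_at had a difference of -0.36, with every MEF pair lower and every 10T1/2 pair higher, but the test of the difference did not pass (adjusted p = 0.255, limma). Opposite signs in every pair were seen in 20.9% of all probe sets tested in both cell types. The test of the difference also called Elk4 1427162_a_at (-1.36) and Elk3 1417662_at (-0.98), and it called 26.9% of all probe sets. It did not call Srf 1418256_at (0.76), Elk4 1422233_at (0.24) or Elk4 1447571_at (0.02). The MEF and 10T1/2 arrays differ in cell type, serum and the means of losing Med23, which cannot be told apart.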

How the results depend on the processing

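No paired analysis was possible because the labels carry no replicate numbers. Arrays were matched by condition alone, through the terms for serum time and MAL in the reported models. In each comparison the count of probe sets called moved by over 1.5 times in some settings, as follows. The ranges given also take in smaller moves. For KO against WT it was 9093, and 5018 with 1 probe set per gene, 5198 without the serum term, and 3752 to 8406 with a serum time left out (4598 without 0 min). For 30 min of serum it was 60, and 37 with no filter, 30 with 1 probe set per gene, 145 with an intensity trend, 152 in the fit over all 10 arrays and 7 without the 90 min arrays. For 90 min it was 2242, and 0 without the 30 min arrays. For 90 against 30 min it was 1140, and 748 after quantile normalization and 113 without the 0 min arrays. For MAL it was 0, and 1748 after quantile normalization, 8 with 1 probe set per gene, 3168 in the fit over all 10 arrays and 244 to 1860 with a 10T1/2 array left out of that fit. For the knockdown it was 0, and 2359, 4209 in the fit over all 10 arrays and 62 to 3051 likewise. For the difference between knockout and knockdown it was 5998, and 3118 to 5348 with arrays left out. The cause of these moves was not tested, beyond the fewer probe sets of the 1-per-gene fits and the fewer arrays of the others. A fit that leaves out a 10T1/2 array assumes that the lone arrays vary like the MEF arrays.

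Signs turned only for values not called as reported, those of members and of Med23 with MAL. After quantile normalization these were Mrtfa (-0.02), Mrtfb 1428028_at (0.01) and Elk3 1435143_at (-0.10) at 30 min, and Elk4 1447571_at with knockdown (-0.12). With arrays left out, the ranges that crossed 0 were, for KO, Elk4 1447571_at (-0.13 to 0.20) and Mrtfb 1428028_at (-0.01 to 0.08). For MAL they were Elk3 1448797_at (-0.02 to 0.06), Srf 1418255_s_at (-0.18 to 0.03), Mrtfb 1428028_at (-0.42 to 0.35), 1435547_at (-0.03 to 0.64) and 1445134_at (-0.02 to 0.05), Elk4 1447571_at (-0.37 to 0.06) and Med23 (-0.30 to 0.22). For the knockdown they were Mrtfb 1428028_at (-0.59 to 0.18) and Elk4 1447571_at (-0.17 to 0.26). For 30 min of serum, with either genotype left out, they were Mrtfb 1445134_at (-0.37 to 0.02) and Elk4 1447571_at (-0.29 to 0.26). Elk3 did so there on 1417662_at (-0.21 to 0.1), 1435143_at (-0.22 to 0.24) and 1448797_at (-0.09 to 0.04). From 30 to 90 min they were Srf 1418255_s_at (-0.01 to 0.44) and 1418256_at (-0.42 to 0.94), Mrtfb 1445134_at (-0.3 to 0.15) and Elk3 1417662_at (-0.1 to 0.39). Without the serum term the KO calls of Srf (adjusted p = 0.738), Mrtfb (0.279) and Elk1 (0.125) were lost in limma. Elk1 missed with no filter (0.0556) and with a trend (0.0501), and Mrtfb in the fit over all 10 arrays (0.0659). Srf 1418256_at passed at 30 min with a trend (0.0413) and in that fit (0.0185).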
